A study of Caenorhabditis elegans with 18 samples.

Results

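The low-recombination centre of Caenorhabditis elegans chromosome III was taken as all 500-bp windows of the deposited table that start between 3722001 and 10340000 on that chromosome. It holds 13236 of 200538 windows, or 6.60% of the table and 48.0% of the windows of chromosome III, and spans 6.62 Mb. The limits come from position alone and use no measured value. For tests the windows were averaged over bins of 10 kb, of which 661 of 10029 lie wholly inside the limits. These 661 bins hold 13220 of the windows, and the other 16 windows fall in bins that cross a limit.

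LEM-2 was immunoprecipitated from fixed chromatin of early embryos grown at 20 degrees, and the recovered DNA (IP) was sequenced beside input chromatin. By their labels, the 3 strains were the wild type N2 (Bristol) and the single mutants met-2(n4256) III and set-25(n5021) III. Each strain had 3 IP and 3 input libraries, which the labels call independent biological replicates, so that 18 libraries fall into 6 groups. The embryos were whole and younger than the bean stage, so each value is an average over all their cell types. Per the labels, both mutated genes lie on chromosome III.

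LEM-2 sits in the inner membrane of the nuclear envelope, so that DNA recovered with it marks chromatin lying at the nuclear rim. Worm autosomes are arranged as a gene-dense centre with little recombination between repeat-rich arms that carry methylation of histone H3 at lysine 9 (H3K9) and are held at the rim in embryos. MET-2, the worm homologue of SETDB1, deposits mono- and dimethylation at H3K9 and SET-25 deposits trimethylation, and in embryos the loss of both releases heterochromatin from the rim. The centre of chromosome III is known for its many essential genes and for the Hox genes lin-39 and mab-5. No gene was assigned to a window, because the windows and the only gene table used here come from different builds.

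LEM-2 enrichment is given throughout as the log2 value of an IP library minus the mean log2 value of the 3 inputs of its strain, so 0 means as many scaled reads as in input and -1 means 1 read where the input had 2. One input mean is thus shared by the IP libraries of a strain, and the SD of their 3 values therefore leaves out the spread of the inputs. Recovered totals ran from 8.73 M reads in met-2 IP library b to 64.5 M in set-25 input library a. A window of the centre held a median of 36 reads in met-2 IP library b, 69 to 147 reads in the other IP libraries and 163 to 332 reads in the inputs. No window of the centre had fewer than 10 mean input reads, and 69 had an input over 3 times the median window or under that median divided by 3. N2 IP library a stood apart from the other N2 libraries, with the lowest value of all 9 IP libraries in 606 of the 661 bins.

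A 1-kb interval inside the centre was missing from the met-2 libraries and from 2 of the 3 columns labelled set-25. It lies on chromosome III from 8376501 to 8377500 and consists of 2 windows. It was the sole interval of the centre in which some inputs fell to 5% or less of their median window while the others were at 50% or more. The N2 inputs held 435, 358 and 425 reads there, and the met-2 inputs held 3, 0 and 1. The inputs labelled set-25 held 684, 0 and 0 reads in columns a, b and c. The interval was therefore present in N2 at 95.8% to 119% of the median window and in set-25 input a at 111%. The IP libraries showed the same split, with 143, 91 and 159 reads in N2, 5, 0 and 0 reads in met-2, and 234, 0 and 1 reads in the columns a, b and c labelled set-25. Where no read was found, a count of 0 allows up to 3 reads, which is 0.682% and 0.847% of the median window in set-25 inputs b and c, 1.09% in set-25 IP b, 0.691% in met-2 input b, and 3.75% and 1.27% in met-2 IP b and c. The kilobases on either side held between 35.2% and 141% of the median window in every library.

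The allele n4256 is known as a deletion in met-2, and the label of set-25(n5021) names no change at met-2. Columns b and c labelled set-25 thus carried a mark of the met-2 strain that their label does not give, and column a did not. They are called libraries labelled set-25 below, and the main results for that group are given by column. Whether the interval belongs to met-2 was not tested, since the table's coordinates could not be placed on the gene models at hand. In the RefSeq gene table, met-2 lies between lmbr-1 and R05D3.12.

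**Figure D1:**
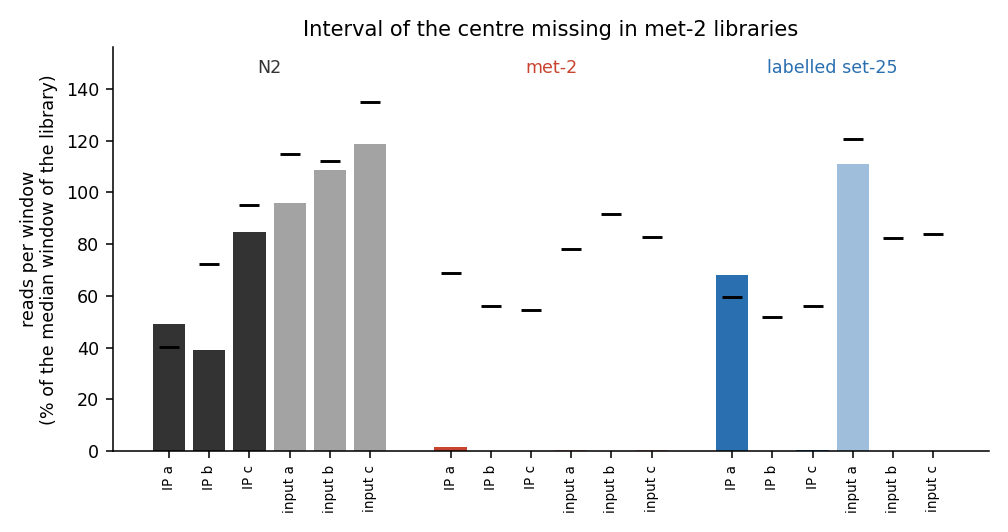
Reads per window of the missing 1-kb interval in the 18 libraries, as percent of the median window of each library; solid bars are IP, pale bars input, and the black dashes the mean of the kilobases on either side. N2 and column a labelled set-25 stand at 39.2% or more. Columns b and c of that label and all met-2 libraries stand at 1.61% or less.

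In N2 embryos the centre of chromosome III was depleted of LEM-2 over almost all of its length. Its mean enrichment was -1.14, -0.77 and -0.79 in N2 libraries a, b and c, or -0.90 ± 0.21 (SD, n = 3). As a linear ratio of IP to input, the geometric mean over windows was 0.540 ± 0.075 (n = 3), which is not a share of reads. All 3 libraries lay below their inputs, and library a lay well below the others. By reads, the centre took 4.01%, 4.88% and 4.88% of the N2 IP libraries but 7.15%, 7.22% and 7.24% of the N2 inputs. The Wilson 95% intervals of the 9 IP shares were 0.0124 to 0.0320 percentage points wide. Like all intervals and limits here, they cover counting error only, since copies made by PCR are not independent molecules. Libraries were sequenced in pairs and every recovered total was even, yet reads were treated as independent. The intervals and limits may thus be too narrow even for counting error.

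At the scale of 10-kb bins, 608 of 661 bins (92.0%) were depleted in N2 and 15 (2.27%) were enriched at an adjusted p under 0.05 (limma, Benjamini-Hochberg over all 10029 bins). Across all chromosomes the share depleted was 53.5% and the share enriched was 32.3%. The median bin of the centre stood at -0.995, against -0.25 for all bins. The bin means ranged from -1.63 to 0.91, and all 3 N2 libraries lay below 0 in 619 bins and above 0 in 25. These counts by sign were made in the centre only, so no share over all chromosomes stands beside them. Of the 13236 single windows, 10955 were depleted and 195 enriched, where 42.1% and 24.9% of all windows were. Windows above 0 made up 5.38%, 7.88% and 8.75% of the centre in N2 libraries a, b and c. IP and input levels of the centre did not overlap in N2. With 3 against 3 this gives the smallest possible p of an exact two-sided permutation test, 0.1 (0.15 adjusted over the 15 main tests of this kind).

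The lowest bins were spread over the left and middle parts of the centre. The bin from 5950001 to 5960000 stood at -1.79, -1.36 and -1.76 in N2, a mean of -1.63 ± 0.24 (n = 3). Those starting at 5850001, 6950001, 5590001 and 6370001 had means between -1.61 and -1.58. The highest bin, from 10230001 to 10240000, stood at 0.94, 0.89 and 0.90, with a mean of 0.91 ± 0.03. With at most 1 bin named per 100 kb, it was followed by the bins starting at 5350001 (0.82 ± 0.10), 10020001 (0.42 ± 0.06), 7440001 (0.20 ± 0.21) and 7590001 (0.18 ± 0.02). These bins were chosen by their N2 values, which are given as a description. Of those highest in N2, the bins at 5350001, 7440001 and 7590001 hold windows of high input. Their highest inputs were 37.9, 52.9 and 37.0 times the median window.

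The level varied along the centre. In consecutive 500-kb segments counted from the left limit, the N2 mean was lowest in the third, from 4722001 to 5222000, at -1.53, -1.03 and -1.05 in libraries a, b and c. It was nearly as low in the fifth segment, with a mean of -1.19 ± 0.28. The eighth segment, from 7222001 to 7722000, stood higher at -0.70, -0.46 and -0.46. The highest was the last one, from 9722001 to 10340000, at -0.50, -0.36 and -0.33. The order of the third and the fifth segment is within the spread between libraries, whereas every N2 library placed the last segment above all others.

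The left limit of the centre was steep in N2 and the right limit was not. Over the 500 kb outside the left limit the N2 mean went in 100-kb steps from 0.43 through 0.32, 0.08 and 0.03 to -0.56, and the first 100 kb inside stood at -0.85. The last 5 steps inside the right limit stood at -0.43, -0.37, -0.27, 0.11 and -0.08. The 5 steps outside it stood at -0.25, -0.26, 0.08, -0.57 and -0.22, so within 500 kb the N2 level was no higher outside the right limit than inside it. Only from 500 kb beyond that limit did each further 100-kb step to 1000 kb exceed 0, with means from 0.25 to 0.75. The met-2 means over the same 5 steps were 0.05 to 0.30.

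In met-2 embryos the centre was less depleted of LEM-2 than in N2. The mean enrichment was -0.18, -0.29 and -0.39 in met-2 libraries a, b and c, or -0.28 ± 0.10 (SD, n = 3). The geometric mean over windows of the ratio of IP to input was 0.822 ± 0.058. All 3 met-2 libraries lay above all 3 N2 libraries. The difference of 0.61 left a depletion that was 31.7% of the N2 value. The centre took 6.41%, 6.18% and 5.997% of the met-2 IP reads. By the exact two-sided permutation test the difference between strains had p = 0.1, the smallest that 3 against 3 allows, and 0.15 after adjustment.

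The rise was found in most of the centre. Of 661 bins, 576 (87.1%) were higher in met-2 than in N2 and 2 (0.303%) were lower (limma, adjusted p under 0.05), against 45.6% higher and 22.3% lower over all chromosomes. The median change of the centre was 0.67 and that of all bins 0.20. Every value is relative to a fixed total, and centring each library on its median window moved these medians to 0.45 and -0.02, with 457 bins of the centre higher and 13 lower (71.1% called, against 63.9% over all chromosomes). All met-2 libraries lay above all N2 libraries in 607 bins and below them in 3. This overlap count was made in the centre only, so no share over all chromosomes stands beside it. Leaving out N2 library a, IP and input, changed the mean difference to 0.50. The limma calls were then 497 bins higher and 1 lower (75.3% called, against 53.2%).

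Within met-2 itself, 365 bins of the centre (55.2%) were still depleted and 35 (5.30%) enriched against input, with 30.0% and 22.4% over all chromosomes. The bin means ranged from -0.85 to 0.50. Windows above 0 made up 24.0%, 26.9% and 21.3% of the centre in libraries a, b and c, so all 3 lay above the N2 libraries. All 3 met-2 libraries were below 0 in 538 bins and above 0 in 71, counts again made in the centre only. Calls in either direction made up 60.5% of the bins, against 52.3% over all chromosomes. With 1 library left out they made up between 32.1% (without met-2 IP library c, with 33.0% over all chromosomes) and 67.6% (without set-25 IP library a, with 59.2%). Of single windows 1572 were depleted and 94 enriched, or 12.6% called in all. Over all chromosomes 5.55% were depleted and 7.54% enriched, 13.1% in all, so the total share called was no higher in the centre. By direction, 11.9% of its windows were depleted, above the share over all chromosomes, and 0.710% were enriched, below it. The input levels of the centre also differed, at 7.49 to 7.51 in N2 and 7.46 to 7.47 in met-2 (mean log2 value), and this gap of the strain means, 7.50 against 7.47, is small beside the change of 0.61.

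**Figure D2:**
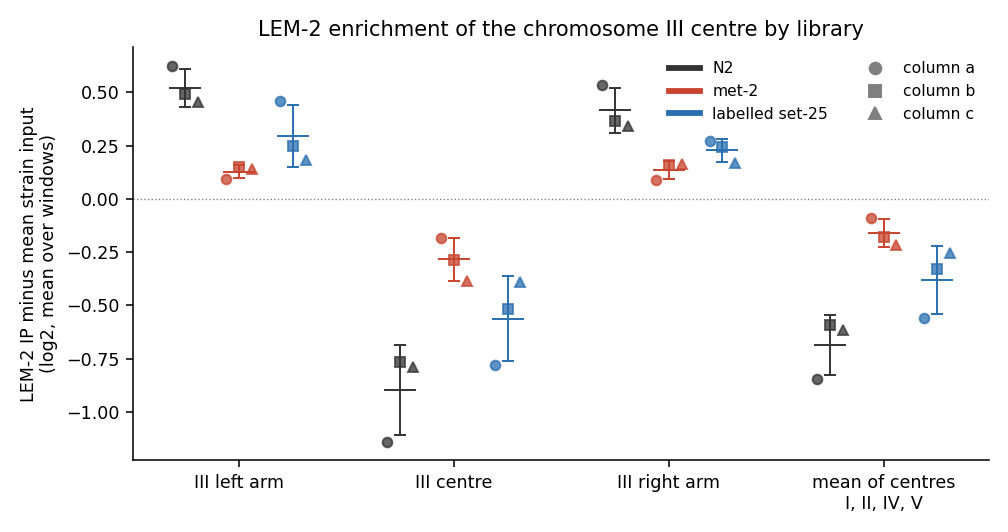
Mean LEM-2 enrichment (log2) per IP library in the arms and centre of chromosome III and in the mean of the other autosomal centres; symbols are columns a to c, dashes and bars the mean ± SD of 3 libraries. In the III centre N2 lies at -1.14 to -0.77, the libraries labelled set-25 at -0.78 to -0.39 and met-2 at -0.39 to -0.18.

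The profile was flatter in met-2. The SD over the 661 bins was 0.55, 0.41 and 0.42 in N2 libraries a, b and c and 0.16, 0.26 and 0.37 in the met-2 libraries. The strain means of this SD were 0.459 ± 0.077 and 0.265 ± 0.103 (n = 3), and the groups did not overlap (exact permutation p = 0.1, adjusted p = 0.15). Low and high bins kept much of their order all the same. Across the 661 bins, Pearson's r was 0.953 to 0.968 between N2 libraries, 0.879 to 0.928 between met-2 libraries and 0.829 to 0.865 between the strains. These r values describe bins that share their libraries and input means, and bins are not replicates.

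Along the centre the met-2 libraries lay above the N2 libraries in all 13 segments, without overlap. The difference was largest in the eleventh segment, from 8722001 to 9222000, at 0.84. There N2 stood at -1.37, -0.92 and -0.96 and met-2 at -0.16, -0.23 and -0.32. It was 0.79 in the third segment, where met-2 stood at -0.25, -0.42 and -0.56. In the eighth segment met-2 came closest to input, at -0.03, -0.05 and -0.05. The difference was smallest at the ends of the centre, with 0.35 in the first segment and 0.29 in the last. By bins, 49 of 49 were called higher in 5 of the 13 segments, 24 of 49 in the first and 30 of 61 in the last.

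**Figure D3:**
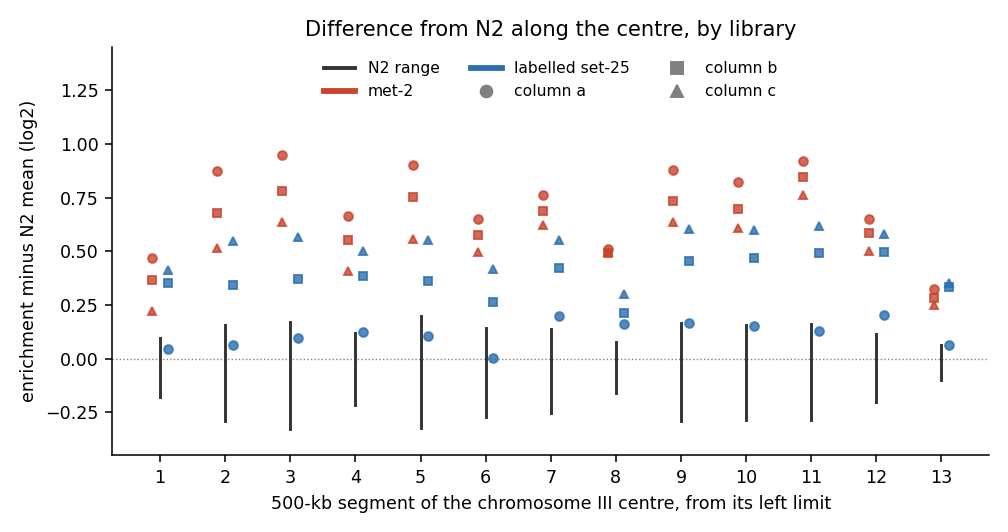
Enrichment of each met-2 library and each library labelled set-25 minus the N2 mean (log2) in the 13 segments of the centre from left to right; black lines are the range of the N2 libraries. The met-2 points lie above the N2 range in all 13 segments, and column a labelled set-25 lies below columns b and c.

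The bin that rose most in met-2 was that from 5990001 to 6000000. It stood at -1.64, -1.38 and -1.39 in N2 and at -0.19, -0.31 and -0.53 in met-2. The change was 1.13 with a standard error of 0.15 (limma, adjusted p = 0.000128). The bin thus went from among the lower ones of the centre to near its met-2 average. The bin from 8820001 to 8830000 went from -1.54, -1.01 and -1.04 to -0.01, -0.07 and -0.14, a change of 1.12 (SE 0.16) that left it close to input. The next rises, at bins starting at 5140001, 4410001 and 9080001, were 1.05, 1.02 and 0.99. The libraries labelled set-25 stayed below the met-2 libraries in each of these 5 bins, for instance at -1.05, -0.76 and -0.60 in the bin at 8820001. The bins were chosen by their high met-2 values, so this comparison is a description only.

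The 2 bins that were lower in met-2 adjoin each other near the right limit, and both were among the few that LEM-2 enriched in N2. The bin from 10230001 to 10240000 fell from 0.94, 0.89 and 0.90 in N2 to 0.24, 0.46 and 0.59 in met-2, a change of -0.48 (SE 0.11, limma adjusted p = 0.00124). The libraries labelled set-25 stood at 0.93, 0.70 and 0.74 there. The bin before it, from 10220001 to 10230000, went from 1.01, 0.83 and 0.81 to 0.34, 0.43 and 0.74, a change of -0.38 (limma adjusted p = 0.0446); it lies within 100 kb of the larger fall, outside the rule for named bins, and is given after its values were seen. In the bin at 5350001, named above for its N2 level, the groups did not overlap, with 0.91, 0.83 and 0.72 in N2 and 0.32, 0.41 and 0.63 in met-2, but the adjusted p was 0.129 (limma).

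The libraries labelled set-25 lay between the other strains, with a spread that followed the columns. Their mean enrichment was -0.78, -0.52 and -0.39 for a, b and c, or -0.56 ± 0.20 (SD, n = 3). The geometric mean over windows of the ratio of IP to input was 0.681 ± 0.092. Column a, which carried the interval missing in met-2, lay within the N2 range. Columns b and c, which lacked it, lay above all N2 libraries, and column c stood just below the lowest met-2 library, both at -0.39. The mean difference from N2 was 0.33 with overlap between the groups (exact permutation p = 0.2, adjusted p = 0.231). With column a alone it was 0.11, and with columns b and c alone it was 0.45. Column a alone against N2 libraries b and c gave -0.01.

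By bins, 162 of 661 (24.5%) were higher than in N2 and none were lower (limma, adjusted p under 0.05), against 19.8% and 10.6% over all chromosomes. The share higher is thus near the background. At an unadjusted p under 0.05 the counts were 326 and 0. The median change of the centre was 0.35, against 0.18 for all bins. Centring on the median window moved these to 0.20 and 0.03, with 31 bins higher and 0 lower. That is 4.69% of the centre, below the 18.4% called in either direction over all bins with this centring. These calls rested on which columns entered the fit: without column a labelled set-25 there were 419 higher and 1 lower (63.5%, against 55.8% over all bins), and without N2 column a there were 9 (1.36%, against 2.67%). Without columns b and c there were 0 in the centre and 0 over all bins (16 of the centre at an unadjusted p under 0.05). That fit has 1 IP and 1 input left under this label and assumes that they vary as the libraries of the other groups do. With 1 library left out the share called ran from 2.87% (without set-25 IP c, with 6.73% over all bins) to 71.9% (without set-25 IP a, with 60.0%). Single windows gave 0 calls in the centre (0 higher and 0.00150% lower over all windows), with 2173 higher and 7 lower at an unadjusted p under 0.05.

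Column a labelled set-25 exceeded all 3 N2 libraries in 234 of 661 bins, column b in 579 and column c in 634. Column b exceeded column a in 622 bins and column c exceeded it in 633. These counts were likewise made in the centre only. The shares of reads in the centre ran the same way, at 4.93%, 5.56% and 5.90% for a, b and c. Against their inputs, which took 7.21%, 7.19% and 7.15%, the group had 533 bins depleted (80.6%) and 35 enriched (5.30%), with 43.7% and 29.0% over all chromosomes. The part of the missing interval's genotype in these differences between columns was not tested.

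The largest rise over N2 was in the bin from 9190001 to 9200000, which stood at -0.93, -0.65 and -0.66 in N2 and at -0.32, 0.03 and 0.04 in the libraries labelled set-25. The change was 0.66 (SE 0.13, limma adjusted p = 0.00429). The met-2 libraries stood at -0.10, -0.04 and -0.12 in the same bin, so its met-2 and set-25 means were nearly equal, at -0.08 and -0.09. The other named rises, at 9630001, 4390001, 8760001 and 8040001, were 0.63 to 0.58. The bins at 4390001, 8760001 and 8040001 lost their call without N2 column a. Columns b and c stood above all N2 libraries in all 13 segments, and column a did so in 5 of the 13.

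The centre was higher in met-2 than in the libraries labelled set-25. The difference of the means was 0.28 without overlap (exact permutation p = 0.1, adjusted p = 0.15). It was 0.50 against column a alone and 0.17 against columns b and c, again without overlap (exact permutation p = 0.2). Only 2 of 661 bins (0.303%) were called higher in met-2 and 0 lower (limma, adjusted p under 0.05), against 0.389% and 0.0299% over all chromosomes. At an unadjusted p under 0.05 the counts were 240 higher and 6 lower, and limma voom on the recovered reads called 154 higher and 1 lower (23.4%, against 11.0% over all bins). With 1 library left out the share called ran from 0 (among others without N2 input a, with 0.289% over all bins) to 19.7% (without set-25 IP c, with 9.67%). The median change was 0.30 in the centre and 0.04 over all bins. All met-2 libraries lay above all libraries labelled set-25 in 257 bins and below them in 9. This overlap count, too, was made in the centre only.

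Both called bins lie in the eleventh segment. The bin from 8850001 to 8860000 stood at -0.10, -0.15 and -0.28 in met-2 and at -1.14, -0.94 and -0.81 in columns a, b and c, a difference of 0.78 (SE 0.16, limma adjusted p = 0.0354). The bin from 8870001 to 8880000, named after its values were seen because it is the other call, stood at -0.07, 0.12 and -0.10 in met-2 and at -0.93, -0.70 and -0.63 in the columns labelled set-25. Both bins were chosen by this difference. That all 3 columns labelled set-25 lay below met-2 in them is therefore given as a description. Across the 13 segments the difference ran from 0.03 in the last to 0.45 in the third, and the groups did not overlap in the third and the fifth to eleventh. In the last segment columns b and c, at -0.06 and -0.04, stood above all met-2 libraries, at -0.07, -0.12 and -0.15.

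Within the depleted centre, 26 islands of LEM-2 enrichment were found in N2, defined as runs of at least 4 windows (2 kb) that were above 0 in all 3 N2 libraries. They cover 239 windows, or 1.81% of the centre, with a median length of 3 kb. Of these islands 18, with 181 windows, lie in the last segment, and the others lie in the fourth (2), sixth (2) and eighth (4) segments. The longest spans 23.5 kb from 10222001 to 10245500 and overlaps both bins that fell in met-2. It stood at 0.99, 0.84 and 0.83 in N2, 0.31, 0.46 and 0.66 in met-2, and 0.84, 0.74 and 0.65 in columns a, b and c labelled set-25.

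The islands stayed above input in the mutants. Their mean was 0.53 ± 0.02 in N2, whose values chose them, 0.33 ± 0.12 in met-2 and 0.52 ± 0.04 in the libraries labelled set-25 (SD, n = 3). All 3 libraries were above 0 in 24 of 26 islands in met-2 and in 25 of 26 in the libraries labelled set-25. In met-2 the islands stood at 0.22, 0.32 and 0.46 and the rest of the centre at -0.19, -0.30 and -0.40 in libraries a, b and c. In columns a, b and c labelled set-25 the islands stood at 0.54, 0.54 and 0.48 and the rest at -0.81, -0.54 and -0.41. The mean over the islands thus varied little between these columns while the rest of the centre followed the order of the whole. Single islands differed more, and in either direction. The island starting at 7593501 stood at 0.61, 0.06 and -0.05 in columns a, b and c, and that starting at 10034001 at 0.29, 0.61 and 0.56. The step from rest to islands was 0.63 ± 0.23 in met-2 and 1.102 ± 0.23 in the libraries labelled set-25, and its difference is given with no test.

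**Figure D4:**
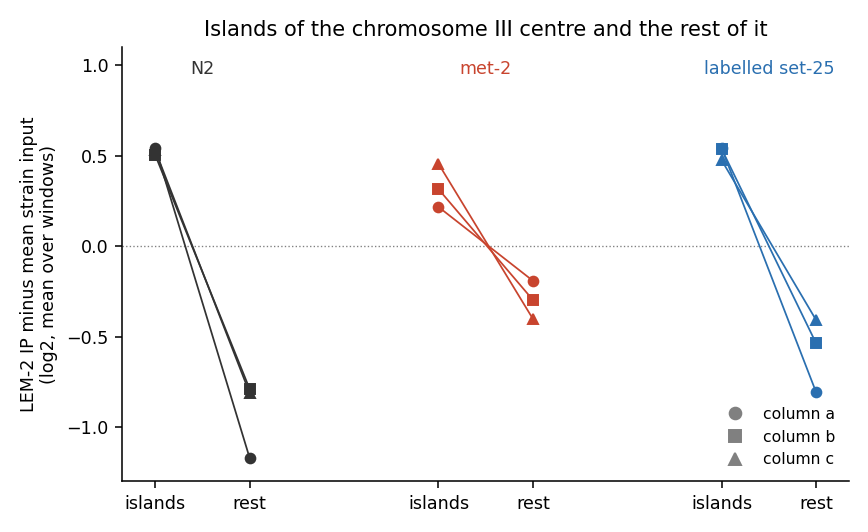
Mean LEM-2 enrichment (log2) of the islands and of the rest of the chromosome III centre in each IP library, joined by a line; symbols are columns a to c. Islands lie above 0 in all 9 libraries, at 0.22 to 0.55, and the rest lies between -1.17 and -0.19.

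Some island windows lie where the input itself was high. In 4 of the 26 islands, 27 windows had an input over 3 times the median window, and the highest input of the centre, 110 times the median, lies in the longest island. Without these 27 windows the island means were 0.48 ± 0.02 in N2, 0.31 ± 0.11 in met-2 and 0.49 ± 0.03 in the libraries labelled set-25. In met-2, all 3 libraries were above 0 in 1137 windows and below 0 in 7498, against 437 and 11637 in N2 and 814 and 9877 in the libraries labelled set-25. Such windows, too, were counted in the centre only.

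Beside the arms of its own chromosome the centre of III stood far lower in N2, by -1.72, -1.20 and -1.19 in libraries a, b and c. In met-2 this step was -0.27, -0.44 and -0.54, and in columns a, b and c labelled set-25 it was -1.15, -0.76 and -0.57. These steps are taken within a library and do not depend on how libraries were scaled. Met-2 kept 30.4% of the N2 step (difference 0.95) and the libraries labelled set-25 kept 60.5% (difference 0.54). Neither mutant group overlapped N2 nor the other (exact permutation p = 0.1 for each, adjusted p = 0.15). Column a labelled set-25 alone differed from N2 by 0.19, and by 0.01 from N2 without its library a.

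Both sides of the step moved. The left and right arms of III stood at 0.52 and 0.41 in N2, at 0.13 and 0.14 in met-2 and at 0.30 and 0.23 in the libraries labelled set-25. By column the latter were 0.46, 0.25 and 0.18 in the left arm and 0.27, 0.25 and 0.17 in the right arm. In the left arm 67.1% of bins and in the right arm 59.6% were lower in met-2 than in N2, where the centre had 0.303% lower.

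Among the 5 autosomal centres that of III had the lowest LEM-2 level in 9 of 9 IP libraries. In N2 its mean of -0.90 compared with -0.87 for II, -0.81 for I, -0.54 for V and -0.53 for IV. The gaps to II and I are smaller than the SD of the levels between libraries. That SD is not the spread of the gaps within a library. In N2 libraries a, b and c the centre of III stood at -1.14, -0.77 and -0.79. The centre of II stood at -1.10, -0.75 and -0.77 and that of I at -1.02, -0.69 and -0.71. Within each library, the centre of III minus the mean of the other 4 was -0.29, -0.17 and -0.17 in N2, -0.09, -0.11 and -0.17 in met-2, and -0.22, -0.19 and -0.14 in columns a, b and c labelled set-25. The met-2 change was 0.61 in the centre of III and 0.53 in the mean of the other centres. That difference of 0.09 showed no overlap between strains (exact permutation p = 0.1, adjusted p = 0.15). It fell to 0.05 without N2 IP library a. The margin was narrow, with met-2 library c at -0.168 and N2 library c at -0.170. Without N2 input c, or without met-2 input a, the strains overlapped (exact permutation p = 0.3 for each). The libraries labelled set-25 differed from N2 by 0.03 in this measure (exact permutation p = 0.7).

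The bins called higher in met-2 made up 87.1% of the centre of III, 88.7% of that of I, 92.0% of II, 69.9% of IV and 81.0% of V. For the libraries labelled set-25, all 3 columns together, the shares were 24.5% in III, 35.2% in I, 41.2% in II, 30.4% in IV and 34.3% in V. No test of a difference between centres was made on these shares.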

How the data were processed

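Chromatin of early embryos was fixed, sonicated and immunoprecipitated with a LEM-2 antibody, and IP and input libraries were sequenced in pairs, per the labels' protocols. The authors deposited 1 table of log2 values for 200538 windows of 500 bp, with 1 column per library. Its values are log2 of scaled reads plus 2: whole reads were recovered for 100% of the values (within 0.01), every library being scaled to 35.17 M reads, so all values are relative. Per the submitters' processing notes the build was ce10, yet the table's chromosomes end at other positions than in it, and coordinates are printed as in the table. The sources used here do not give the aligner, the counting, the treatment of duplicates or any filter.

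Columns carry a strain, a kind and a letter from a to c, not the replicate number of the labels, so each was a replicate of its group without a number. Enrichment was computed as IP minus the mean input of the strain. Bins of 10 kb over all chromosomes were fitted with limma 3.58.1 (R 4.3.3; 1 coefficient per group over 18 libraries, trend, Benjamini-Hochberg, adjusted p under 0.05), which was also tested on simulated data. Single values per library were compared by exact two-sided permutation tests, with the 15 main tests adjusted together. The Wilson intervals were computed with scipy 1.17.1. Python 3.11.15, numpy 2.4.6, pandas 2.3.3 and matplotlib 3.10.9 were used. Named bins are, for each pair of strains, the 5 largest rises and 5 largest falls among called bins whose groups do not overlap, and the 5 highest and 5 lowest bins in N2, at most 1 per 100 kb. Where fewer passed, fewer are named. The region, the bins' rule and the alternatives were chosen with earlier results of these data known. Alternatives covered the input subtracted, scaling, pseudocount (10), filters, limits of the centre, bin size (500 bp and 50 kb), limma voom on recovered reads, and libraries left out; leaving out column a labelled set-25, or N2 column a alone, was added after the data were seen.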

Additional observations from a re-analysis of the deposited data

Results flagged for a closer look

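IP minus input differed between strains in 578 of the 661 bins for met-2 against N2 (87.4%), in 162 for the libraries labelled set-25 against N2 (24.5%), and in 2 for met-2 against the libraries labelled set-25 (0.303%), by limma at an adjusted p under 0.05. The shares over all bins were 68.0%, 30.4% and 0.419%, so with both directions together the last 2 counts were below those of the genome. By direction, the libraries labelled set-25 had 24.5% of the centre higher than N2 and none lower. Over all bins 19.8% were higher and 10.6% lower. Each count is of bins where the test of the difference itself passed the threshold.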

How the results depend on the processing

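The met-2 rise kept its direction under every alternative tried: the mean difference from N2 was 0.39 when centred on the median window, 0.50 without N2 column a, and 0.49 to 0.68 with 1 library left out, and bins called were 80.8% to 89.9% with 1 library left out. Bins called for met-2 IP against input were 32.1% to 67.6% with 1 library left out. All shares called in this section count both directions together. With 500-bp windows the share called was 25.2% for met-2 against N2 (15.6% over all windows), 12.6% for met-2 IP against input (13.1%), and 0 for both comparisons with the libraries labelled set-25 (2180 and 1903 windows at an unadjusted p under 0.05).

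For the libraries labelled set-25 against N2, 24.5% of bins (30.4% over all chromosomes, given in brackets from here) became 4.69% (18.4%) when centred, 45.8% (54.5%) with 50-kb bins, 63.5% (55.8%) without column a labelled set-25, 1.36% (2.67%) without N2 column a, 2.87% to 71.9% with 1 library left out, and 0 without columns b and c (16 bins at an unadjusted p under 0.05; 22 when N2 column a was also left out, again 0 called). For met-2 against them, 0.303% (0.419%) became 1.36% (0.658%) when centred, 0.908% (0.688%) with a pseudocount of 10, 23.4% (11.0%) with limma voom, 3.05% (2.24%) with 50-kb bins, 19.97% (14.4%) without columns b and c, 64.0% (34.7%) when N2 column a was also left out, 10.3% (3.66%) without N2 column a alone, 0 (0.219%) without column a labelled set-25 (105 bins at an unadjusted p under 0.05), and 0 to 19.7% with 1 library left out.

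Reversals concerned the libraries labelled set-25 against N2. The centre mean difference of 0.33 became -0.00821 without columns b and c and N2 column a. The difference of centre minus other centres, 0.03, became -0.00302 without columns b and c, -0.0317 without N2 column a as well, and -0.00157 without N2 column a alone, with a range of -0.0132 to 0.0475 over single libraries left out. The SD over bins, -0.04, became 0.00889 and 0.0455 in the first 2 of these, with a range of -0.0726 to 0.000716. The cause was not tested.

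A replicate block, pairing the IP and input of 1 letter, gave 86.8%, 18.2% and 0.454% of bins called for met-2 and set-25 against N2 and met-2 against set-25. The letters did not pair by their deviations (r of same-letter IP and input from -0.47 to 0.28). With the block the exact permutation p went from 0.1 to 0.2, with loss of the separation of the groups, for the centre mean of met-2 minus set-25, for centre minus arms of set-25 minus N2, and for centre minus other centres of met-2 minus N2; no mean could pass 0.05 in either fit. The effect of depth on the calls was not tested; the shallowest library, met-2 IP b, had a median of 36 reads per window of the centre.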

Other observations

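A search of all chromosomes for windows at 5% or less of the median in some inputs and 50% or more in the others gave 2 further intervals outside the centre. Chromosome III from 13287501 to 13289000 (3 windows) was missing in all 3 inputs labelled set-25 and in no other. Chromosome V from 1646001 to 1647500 (3 windows) was missing in N2 input a and in inputs b and c labelled set-25. All 3 columns labelled set-25 thus shared the first of these, while columns b and c also shared the interval of the centre with met-2.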
